A study of Schizosaccharomyces pombe with 6 samples.

Results

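The mRNAs of 50 proteins that act at fission yeast replication origins and forks were followed in *rae1-167* cells at 36°C and at 25°C. The genes were taken from a list of names covering origin licensing, the replicative helicase, the polymerases with their clamp, fork protection and nucleotide supply. The rule that picked them sets no threshold on a measured value, but the genes, lists and tests were chosen with earlier results of these data known. Each of the 50 was matched by its symbol to exactly 1 probe set, and they stand among 2919 features for *S. pombe* genes that were tested together. All 50 lay above the array background on all 6 arrays, so no gene on the list was lost to a filter.

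The study examined how nuclear size is set in *Schizosaccharomyces pombe*, and *rae1*, which encodes an mRNA export factor, entered it through a temperature-sensitive allele. Total RNA came from *rae1-167* mutant cells of the 972 strain background, grown to early log phase in YE4S, a rich yeast extract medium. One group was kept at 36°C for 1 h, the temperature restrictive for the mutant, and the other at 25°C. Each group has 3 GeneChip Yeast Genome arrays, described as independent experiments. Both groups carry the mutant allele, and no wild-type arrays were analysed here, so the effects of the temperature and of the mutation cannot be told apart. The arrays were hybridised with total RNA of whole cultures, so fewer cells expressing a gene and less of its RNA per cell cannot be told apart either, and RNA held in the nucleus is measured along with RNA in the cytoplasm.

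Replication begins when the origin recognition complex, Cdc18 and Cdt1 load the ring-shaped Mcm2-7 helicase onto origin DNA in G1. In S phase the Hsk1-Dfp1 kinase and cyclin-dependent kinase bring Cdc45 and the GINS complex to the ring, which turns it into the active helicase. Polymerases α, δ and ε then copy the strands behind it, with the PCNA clamp, the single-strand binding protein RPA and the Mrc1-Swi1-Swi3 group travelling at the fork. In fission yeast a subset of these genes is transcribed at the G1/S boundary by the MBF factor, built from Cdc10, Res1 and Res2.

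Values are the deposited signals, in arbitrary linear units that cannot be compared between genes. For 1 gene they can be compared between arrays only as far as the scaling of the arrays holds, and the arrays share no common level. The median signal of *S. pombe* probe sets was 1145.7 to 1578.5 on the 36°C arrays and 1939.4 to 2617.0 on the 25°C arrays. The level of *rae1* mRNA was 1633.9, 1497.3 and 1530.3 on the 36°C arrays, against 4298.5, 4476.8 and 4717.3 on the 25°C arrays, which limma put at -1.53 on the log2 scale (SE 0.10, adjusted p = 5.6e-05). Signals over all features shifted as well, with a median log2 change of -0.66. Log2 signals correlated at 0.971 to 0.997 among the 36°C arrays, at 0.987 to 0.997 among the 25°C arrays and at 0.759 to 0.789 across temperatures. The ratio of 5′ to 3′ control probe sets, a measure of RNA integrity, was lower on every 36°C array for 3 of 6 control genes. Their mean log2 differences were -1.43 for *SRB4*, -0.61 for CC338.15 and -0.33 for *URA4*. The other controls differed by 0.17 for *RIP1*, 0.12 for *TFIID* and -0.03 for *ACT1*. *SRB4* had the lowest 3′ signals of the 6, at 236 to 420. The part of these ratio differences in the results below was not tested.

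Of the 50 replication genes, 41 (82%) were lower at 36°C than at 25°C and 0 were higher, at a limma adjusted p under 0.05. Over all 2919 features 51.9% were lower and 12.1% were higher in the same test. No replication gene was higher at an unadjusted p under 0.05 either. The median log2 fold change of the 50 genes was -1.77, against -0.66 for all features, and the single values lay between -3.84 and -0.00. The 9 genes that did not pass were *orc2*, *cdt1*, *mcm4*, *sld3*, *cdc1*, *pcn1*, *dna2*, *suc22* and *cdt2*.

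The decreases on the deposited signals were often large, and fewer were as large after the rescalings described below. At least 2-fold lower signals were found for 34 of the 50 genes (68%), against 39.8% of all features, and at least 8-fold lower signals for 11 (22%), against 5.69%. Those 11 were *mcm2*, *mcm3*, *mcm6*, *cdc45*, *psf2*, *cdc23*, *pol1*, *rfc4*, *mrc1*, *swi1* and *swi3*. For 42 genes (84%) all 36°C arrays lay below all 25°C arrays, which held for 56.4% of all features. For the other 8 the groups overlapped, and for 0 genes did the 36°C arrays lie above the 25°C arrays, against 15% of all features.

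**Figure D1:**
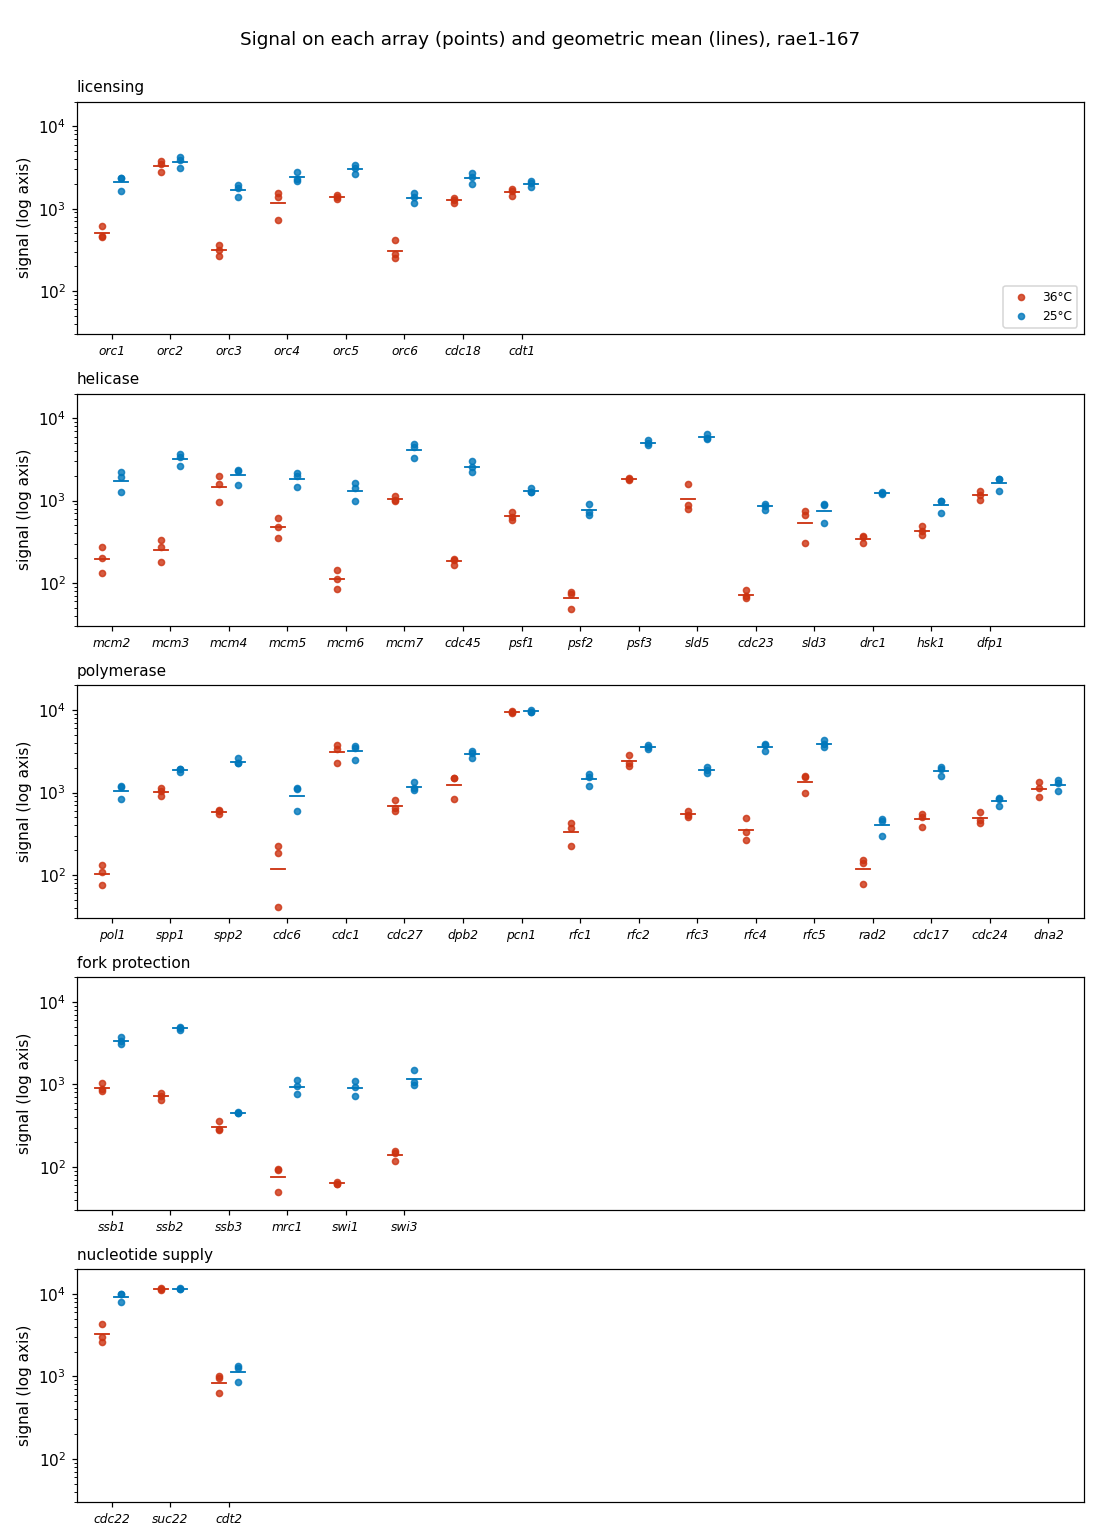
Signal on each array (points, log axis, arbitrary units) and the geometric mean (lines) for the 50 genes in 5 panels by role, with 36°C left of 25°C for each gene. The 36°C points of *cdc45*, *swi1* and *mcm3* sit far below the 25°C points, while those of *suc22* and *pcn1* lie at the same height.

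Because the signals of a typical gene were lower at 36°C, each call was repeated after 2 rescalings that give all arrays a common median. Below, "every scaling" means the deposited signals and these 2. With each array centred on its median, 31 replication genes were lower and 6 higher, beside 34.5% and 39.6% of all features. After quantile normalization 28 were lower and 9 higher, beside 33.9% and 30.3%. At least 2-fold lower were 26 genes after centring and 19 after quantile normalization, beside 648 and 565 of the 2919 features. At least 8-fold lower were 2 and 0 genes, beside 38 and 24 features. Scaling to the bacterial hybridization controls left the counts at 41 lower and 0 higher, beside 53.4% and 12.5% of all features. A set of 28 genes (56%) were lower on the deposited signals and in both rescalings, against 28.4% of all features, so their decrease exceeded that of the typical gene. Another 4 genes, *orc2*, *cdt1*, *cdc1* and *dna2*, were higher in both rescalings (8%, against 26.2% of all features) while none of them passed the test on the deposited signals.

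**Figure D2:**
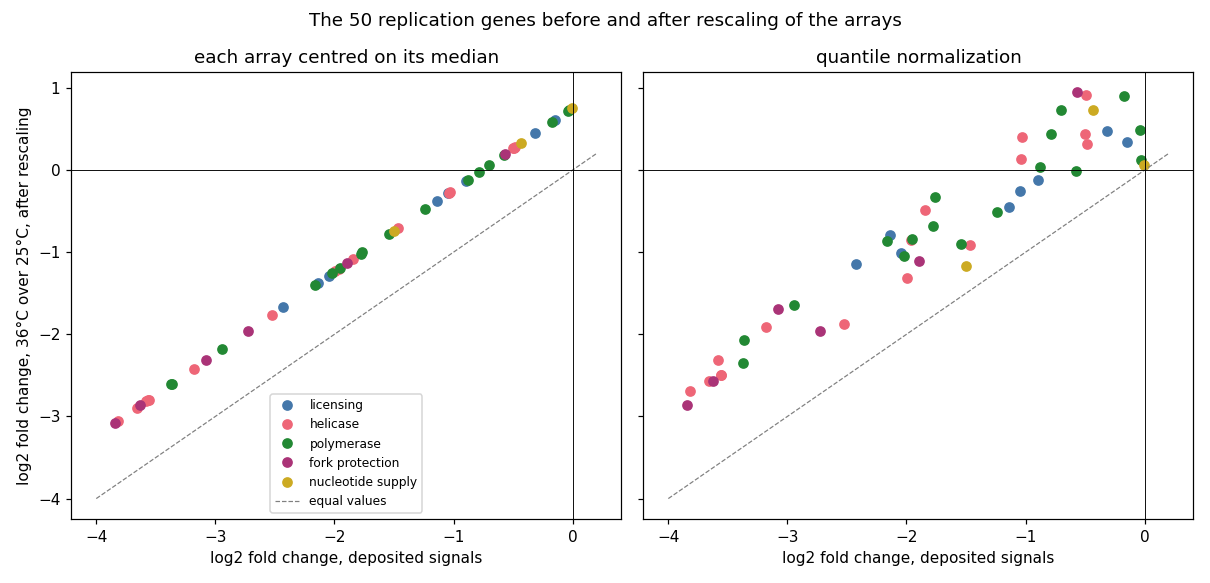
Log2 fold change of the 50 genes after centring (left) or quantile normalization (right), plotted against that of the deposited signals, with colours for the roles. Every point lies above the line of equal values, and the genes with the largest decreases stay below 0 in both panels.

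The licensing genes were split. Of 8, 6 were lower and 2 did not pass, with a median of -1.09, beside 51.9% of all features lower. Only 3 (37.5%) were lower in every scaling, beside 28.4% of all features. *orc3* (SPAC3H1.01c), a subunit of the origin recognition complex, had the lowest value of the group, with signals of 367, 263 and 317 at 36°C, against 1385, 1786 and 1925 at 25°C. Its log2 fold change was -2.43 (SE 0.19, adjusted p = 8.7e-05), and it remained lower in both rescalings. *orc2* (SPBC685.09), a subunit of the same complex, had signals of 2778, 3483 and 3819 at 36°C, against 3120, 3854 and 4207 at 25°C. These groups overlapped, and the log2 difference of -0.15 (95% interval -0.58 to 0.28) did not pass, while it was 0.61 after centring and 0.34 after quantile normalization, both past the threshold.

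The other subunits of the complex lay between. *orc6* (-2.14), *orc1* (-2.05) and *orc5* (-1.14) were lower, with *orc1* and *orc5* lower in every scaling and *orc6* short of the threshold after quantile normalization (-0.80). *orc4*, whose protein carries the AT-hook motifs that bind fission yeast origin DNA, averaged 1224 ± 441 at 36°C and 2407 ± 314 at 25°C (SD, n = 3 each), with a log2 value of -1.04 (SE 0.30, adjusted p = 0.0233). That call was lost after both rescalings, without 25°C replicate 2 (adjusted p = 0.0564) and without 25°C replicate 3 (adjusted p = 0.0819).

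Both helicase loaders had small differences. *cdc18* (SPBC14C8.07c), the fission yeast counterpart of budding yeast and human CDC6, had signals of 1279, 1186 and 1360 at 36°C, against 1992, 2458 and 2705 at 25°C. The groups were apart and the log2 fold change was -0.89 (SE 0.15, adjusted p = 0.00225), but it was -0.13 after centring and -0.12 after quantile normalization, where it did not pass. *cdt1* (SPBC428.18), its partner in loading, had signals of 1431, 1753 and 1656 at 36°C, against 1834, 2161 and 2031 at 25°C. Its groups did not overlap, yet the log2 difference of -0.32 (SE 0.13) missed the threshold at an adjusted p of 0.0727. When replicates were blocked by their number it passed as lower (adjusted p = 0.0214), and in both rescalings it passed as higher (0.44 and 0.48).

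The helicase genes had larger decreases, described here with no test between roles. Of 16, 14 were lower, 13 at least 2-fold and 6 at least 8-fold, beside 51.9%, 39.8% and 5.69% of all features. The median of the 16 was -1.98, and 11 (68.8%) were lower in every scaling, beside 28.4% of all features. At least 8-fold lower were 1 after centring and 0 after quantile normalization. The lowest was *cdc45* (SPAC17D4.02), whose protein joins Mcm2-7 and GINS in the active helicase, with signals of 188, 165 and 197 at 36°C, against 2234, 2548 and 3034 at 25°C. This is a 14.1-fold lower signal (log2 -3.82, SE 0.15, adjusted p = 1.8e-05), and only 1.16% of all features had a change as low or lower. The log2 value was -3.06 after centring and -2.68 after quantile normalization. The 36°C arrays were close to one another and nowhere near the 25°C arrays.

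Within the Mcm2-7 ring, 5 of 6 subunits (83.3%) were lower in every scaling, beside 28.4% of all features. *mcm3* averaged 262 ± 78.2 at 36°C and 3228 ± 548 at 25°C (SD, n = 3 each), 12.6-fold lower, and *mcm6* and *mcm2* had log2 fold changes of -3.58 and -3.18. *mcm7* (-1.99) and *mcm5* (-1.96) fell less. *mcm4* (SPCC16A11.17), which encodes the sixth subunit of the ring, stood apart from its partners: its signals were 965, 1574 and 2012 at 36°C, against 1539, 2294 and 2378 at 25°C. The groups overlapped and the log2 difference of -0.49 (95% interval -1.25 to 0.28) did not pass (adjusted p = 0.222), although it did under the replicate block (adjusted p = 0.0159). The ratio of *mcm3* to *mcm4* within an array does not depend on any single factor per array, though quantile normalization can change it. On the deposited signals its log2 value averaged -2.52 ± 0.08 at 36°C and 0.65 ± 0.10 at 25°C (SD, n = 3 each). That pair was picked after the values were seen and has no test.

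The genes of the 4 GINS subunits, which bridge the helicase to polymerase ε, were all lower, beside 51.9% of all features, but to different degrees. *psf2* averaged 66.2 ± 16.0 at 36°C and 771 ± 131 at 25°C (SD, n = 3 each), with a log2 fold change of -3.56 (SE 0.23). *sld5* followed at -2.52, *psf3* at -1.47 and *psf1* at -1.04. The first 3 were lower in every scaling, beside 28.4% of all features. By contrast, *psf1* did not pass after either rescaling and had a value of 0.13 after quantile normalization.

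The activation factors also differed among themselves. *cdc23*, the Mcm10 protein of fission yeast, averaged 72.5 ± 9.34 at 36°C and 853 ± 73.1 at 25°C (SD, n = 3 each), with a log2 value of -3.56 (SE 0.14, adjusted p = 1.8e-05). *drc1*, the counterpart of budding yeast Sld2, was lower by a log2 value of -1.84, also in every scaling. *hsk1*, which encodes the catalytic subunit of the Cdc7-family kinase, was lower at -1.03 (adjusted p = 0.00272), and its values of -0.27 after centring and 0.40 after quantile normalization did not pass. *dfp1*, its regulatory subunit, passed narrowly at -0.50 (SE 0.18, adjusted p = 0.0494), but lost the call with eBayes trend and robust and without any single array other than 25°C replicate 1 (adjusted p up to 0.16). After centring it did not pass (0.26), and after quantile normalization it passed as higher (0.44). *sld3*, whose protein helps recruit Cdc45, had a difference of -0.49 (95% interval -1.46 to 0.48) that did not pass, passed as lower with the replicate block (adjusted p = 0.0255) and passed as higher, at 0.92, after quantile normalization.

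**Figure D3:**
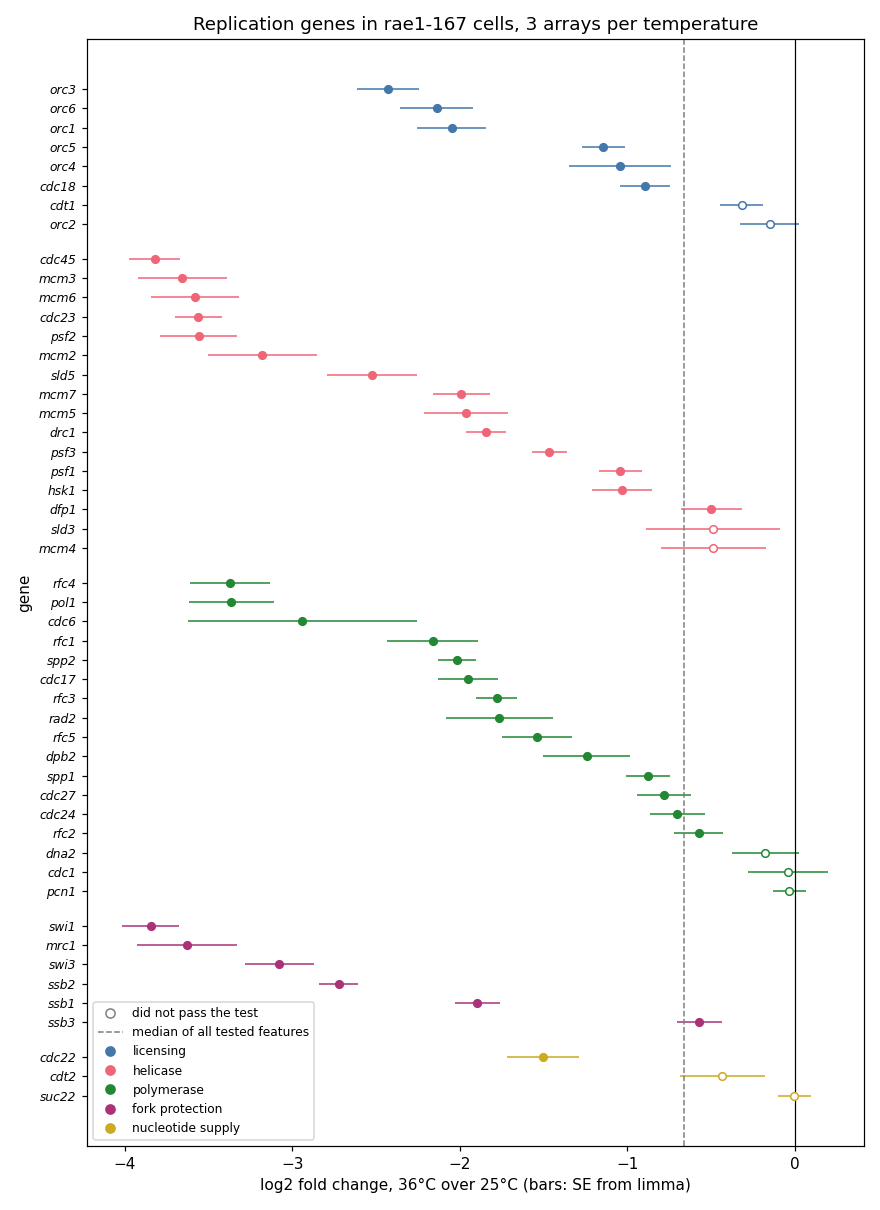
Log2 fold change, 36°C over 25°C, of each gene with its SE from limma, ordered within each role, with open points for genes that did not pass the test and a dashed line at the median of all features (-0.66). The helicase and fork protection genes reach furthest to the left, at -3.82 for *cdc45* and -3.84 for *swi1*.

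Among the 17 polymerase, clamp and strand maturation genes, 14 were lower and 3 did not pass, with a median of -1.54. Of all features, 51.9% were lower. In every scaling 8 of the 17 (47.1%) were lower, beside 28.4% of all features. *rfc4* (SPAC1687.03c), a subunit of the clamp loader replication factor C, had the lowest value, with signals of 486, 264 and 330 at 36°C, against 3791, 3199 and 3863 at 25°C. The log2 fold change was -3.37 (SE 0.24, adjusted p = 6.7e-05). *pcn1* (SPBC16D10.09), the PCNA clamp that this complex loads, had signals of 9151, 9493 and 9863 at 36°C, against 9591, 9634 and 9940 at 25°C. Those groups overlapped, with a log2 difference of -0.03 (95% interval -0.27 to 0.20) that was 0.73 and past the threshold after centring but 0.12 and short of it after quantile normalization.

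The remaining clamp loader genes were all lower, beside 51.9% of all features, in the order *rfc1* (-2.16), *rfc3* (-1.78), *rfc5* (-1.54) and *rfc2* (-0.58). The first 3 were lower in every scaling, beside 28.4% of all features. *rfc2* had an adjusted p of 0.0139, lost its call without 25°C replicate 3 (adjusted p = 0.0532) and did not pass after centring (0.19) or quantile normalization.

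The catalytic subunit of the priming polymerase, *pol1*, was 10.3-fold lower, averaging 105 ± 27.6 at 36°C and 1072 ± 211 at 25°C (SD, n = 3 each). The 2 primase subunits that act with it differed in size of change, with -2.02 for *spp2*, the large subunit, and -0.88 for *spp1*, the catalytic one, which did not pass in either rescaling. *cdc6*, which in fission yeast encodes the catalytic subunit of polymerase δ, was lower by a log2 value of -2.94 with a wide SE of 0.68 (adjusted p = 0.00956). Its 36°C replicate 1 was at 40.5, beside 185 and 222 in the other 2, and the value without that array was -2.17 (adjusted p = 0.00159). After quantile normalization it was -1.64 and did not pass (adjusted p = 0.0821). The accessory subunits of the same polymerase had smaller differences, with -0.78 for *cdc27* and -0.04 (95% interval -0.63 to 0.54) for *cdc1*, which did not pass. The *cdc27* call was lost after centring (-0.02) and after quantile normalization (0.44), while *cdc1* was higher in both (0.72 and 0.49). *dpb2*, the second subunit of polymerase ε, was lower at -1.24 in every scaling.

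Of the lagging strand genes, *cdc17*, the replicative DNA ligase, was lower at -1.95 in every scaling. *rad2*, the flap endonuclease, was lower at -1.76 and missed the threshold after quantile normalization (-0.33). *cdc24*, which acts with Dna2, was lower at -0.70 on the deposited signals, did not pass after centring and had a value of 0.73, past the threshold in the other direction, after quantile normalization. *dna2* itself, a nuclease and helicase, did not pass at -0.18 (95% interval -0.67 to 0.31) and was higher after centring (0.59) and after quantile normalization (0.90).

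All 6 genes for RPA and the fork protection proteins were lower, with a median of -2.90, beside 51.9% of all features lower. In every scaling 5 (83.3%) were lower, beside 28.4% of all features. *swi1* (SPBC216.06c), the fission yeast counterpart of Timeless, had signals of 65.4, 62.3 and 61.4 at 36°C, against 727, 926 and 1100 at 25°C. It was 14.4-fold lower (log2 -3.84, SE 0.17, adjusted p = 2.1e-05), the largest decrease among the 50 genes, and 1.03% of all features had a change as low or lower. The log2 value was -3.08 after centring and -2.86 after quantile normalization. *mrc1* (SPAC694.06c), the mediator of the replication checkpoint, had signals of 48.9, 94.7 and 92.7 at 36°C, against 760, 954 and 1119 at 25°C, which gave -3.63 on the log2 scale (SE 0.30, adjusted p = 0.00012). *swi3*, the partner of Swi1, was 8.44-fold lower. All 3 were at least 8-fold lower on the deposited signals and lower in every scaling, beside 5.69% and 28.4% of all features.

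The RPA subunits were unequal. *ssb2*, the middle subunit, had a log2 fold change of -2.72 and *ssb1*, the large one, of -1.90, both lower in every scaling. *ssb3* (SPCC23B6.05c), the smallest subunit, had signals of 360, 285 and 282 at 36°C, against 455, 445 and 467 at 25°C. Its groups did not overlap and its log2 fold change was -0.57 (SE 0.13, adjusted p = 0.00975), but it was 0.19 and did not pass after centring and was 0.95 and higher after quantile normalization.

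Counts in the nucleotide supply group rest on 3 genes, beside 51.9% of all features lower and 28.4% lower in every scaling. In this group only *cdc22* (SPAC1F7.05), the large subunit of ribonucleotide reductase, was lower. Its signals were 2640, 3036 and 4365 at 36°C, against 8038, 9981 and 9894 at 25°C, at -1.50 on the log2 scale (SE 0.21, adjusted p = 0.00117), and it was lower in every scaling. *suc22* (SPBC25D12.04), the small subunit, had signals of 11107, 11987 and 11625 at 36°C, against 11560, 11446 and 11775 at 25°C. These groups overlapped, and the log2 difference was -0.00 (95% interval -0.24 to 0.23), with 0.76 after centring, past the threshold, and 0.06 after quantile normalization. It was the only one of the 50 genes with a signal above 10000, though *pcn1* (up to 9940) and *cdc22* (up to 9981) came close to that value at 25°C. Saturation cannot be read from the deposited values for any of these genes.

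*cdt2* (SPAC17H9.19c) encodes the adaptor of a ubiquitin ligase that removes Cdt1 and the reductase inhibitor Spd1. It had signals of 624, 951 and 1003 at 36°C, against 868, 1339 and 1262 at 25°C. The groups overlapped and the log2 difference of -0.43 (95% interval -1.05 to 0.19) did not pass (adjusted p = 0.183). With the replicate block it passed as lower (adjusted p = 0.00909), and after quantile normalization it was higher (0.73).

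Partners within a complex or step were then compared as log2 ratios on the same array, since such ratios are free of any factor that scales a whole array. Quantile normalization applies no such single factor and can change them. For 9 of 10 pairs the 36°C and 25°C ratios did not overlap, which also held for 76.3% of all pairs of the 2919 features, so the count says little about partners as such. Each of those 9 had an exact two-sided permutation p of 0.1, the smallest that 3 against 3 arrays can give, and 0.11 after Benjamini-Hochberg adjustment over the 10 pairs, so none could reach 0.05.

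**Figure D4:**
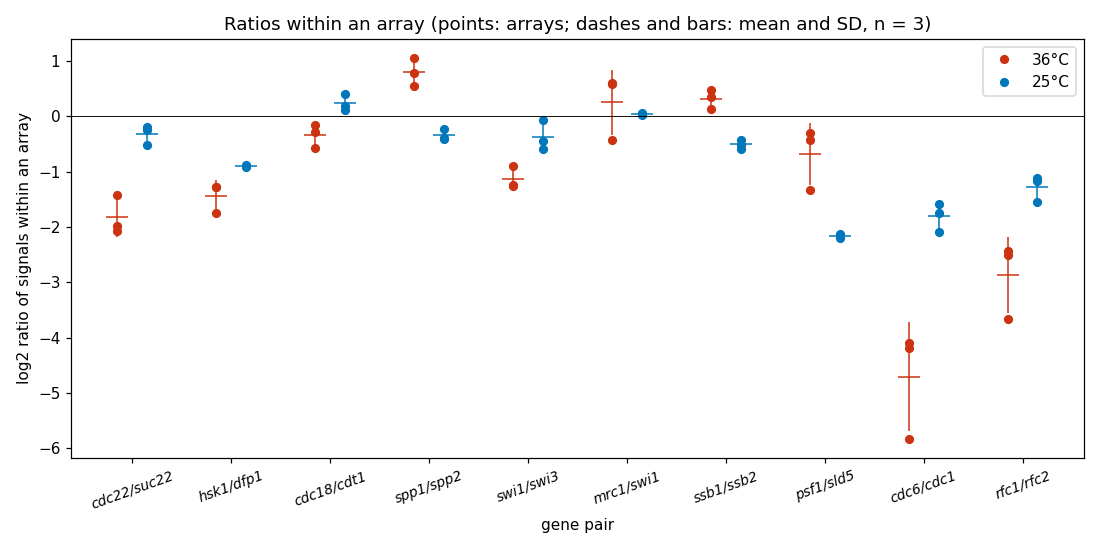
Log2 ratio of signals within an array for 10 gene pairs, with 36°C left of 25°C, points for single arrays and bars for the mean ± SD (n = 3). The temperatures are apart for every pair other than *mrc1*/*swi1*.

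Among these pairs the largest difference was that of *cdc6* over *cdc1*, both of polymerase δ, at -4.70 ± 0.98 at 36°C and -1.80 ± 0.26 at 25°C (SD, n = 3 each). *rfc1* over *rfc2* differed by -1.59 ± 0.42 and *cdc22* over *suc22* by -1.50 ± 0.23 (difference ± SE). *psf1* over *sld5* differed in the other direction, by 1.48 ± 0.32, as did *spp1* over *spp2*, by 1.14 ± 0.16, and *ssb1* over *ssb2*, by 0.83 ± 0.11. Smaller differences were seen for *swi1* over *swi3* (-0.77 ± 0.19), *cdc18* over *cdt1* (-0.58 ± 0.15) and *hsk1* over *dfp1* (-0.53 ± 0.16). The ratio of *mrc1* to *swi1* was 0.26 ± 0.59 at 36°C and 0.04 ± 0.02 at 25°C (SD, n = 3 each), with overlapping groups (exact permutation p = 0.4).

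Replication genes outside the 50 were counted for comparison, from a list of 28 of which 24 had a named probe set. Of these, 17 were lower, 1 was higher and 6 did not pass, with a median of -1.96. Over all features 51.9% were lower and 12.1% higher. In every scaling 13 of the 24 (54.2%) were lower, beside 28.4% of all features. The largest decreases were those of *eso1*, which joins a translesion polymerase to a cohesin acetyltransferase (-3.67), *top1*, the type I topoisomerase (-3.60), and *dpb4*, a small subunit of polymerase ε (-3.46). The 1 higher gene, named after its values were seen, was *spd1*, the inhibitor of ribonucleotide reductase that the Cdt2 ligase degrades. It averaged 11682 ± 355 at 36°C and 5764 ± 407 at 25°C (SD, n = 3 each), with a log2 value of 1.02 (SE 0.11, adjusted p = 0.00031), and it was higher in every scaling. Its 36°C signals of 11950, 11816 and 11279 lay above 10000, and saturation cannot be read from the deposited values.

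The 5 genes of the list that MBF is known to control, *cdc18*, *cdt1*, *cdc22*, *cdt2* and *mrc1*, had unequal values. On the deposited signals 3 were lower, with values between -3.63 for *mrc1* and -0.89 for *cdc18*, beside 51.9% of all features lower. In each rescaling 2 were lower, beside 34.5% of all features after centring and 33.9% after quantile normalization. With the replicate block all 5 were lower, beside 59% of all features lower and 16% higher in that fit. With so few genes, these counts say little about MBF targets as such. Outside the list, the MBF targets *cig2*, a B-type cyclin, and *mik1*, an inhibitory kinase of Cdc2, were lower at -2.65 and -1.39, and *mik1* was at 0.16 and did not pass after quantile normalization. Of the 6 genes of MBF and its regulators, the co-repressors *yox1* (-4.12) and *nrm1* (-2.36) and the activator *rep2* (-1.77) were lower in every scaling. This held for 28.4% of all features. *cdc10*, *res1* and *res2*, which encode MBF itself, did not pass on the deposited signals and were higher in both rescalings. Of all features 26.2% were higher in both, and with 6 genes these counts say little about MBF as such. With the replicate block on the deposited signals *cdc10* (adjusted p = 0.0137) and *res1* (adjusted p = 0.0499) passed as lower and *res2* (adjusted p = 0.00363) as higher. *mik1*, *rep2*, *cdc10*, *res1* and *res2* were named after their values were seen.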

How the data were processed

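Total RNA of *rae1-167* cells, 3 samples at 36°C and 3 at 25°C, had been hybridised to GeneChip Yeast Genome arrays, and the authors deposited 1 linear signal intensity per probe set and array, computed in GCOS with global scaling (the target is not given in the sources used here). Of 10928 probe sets, the platform annotation gave 2917 to 1 *S. pombe* gene and 20 to several. Log2 signals (values under 1 set to 1) of 14 genes with several probe sets were averaged, which left 2919 features: 2899 single genes and the 20 probe sets of several genes, kept as they were. Temperature was fitted with lmFit and eBayes of limma 3.58.1 under R 4.3.3, without a block, and two-sided p-values were adjusted by Benjamini-Hochberg over all features (threshold 0.05). Background was the 90th percentile of *S. cerevisiae* probe sets, 14.0 to 16.7 at 36°C and 15.8 to 21.3 at 25°C. Within-array ratios were compared by exact permutation tests in Python 3.11.15 with scipy 1.17.1. Tables used pandas 2.3.3 and numpy 2.4.6, and figures matplotlib 3.10.9. The limma step was tested on simulated data. Precision is limited by the number of arrays.

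All 50 genes are named. Signals of each array are given for the lowest and highest log2 fold change of each role and for the MBF targets, and of the other lists the 3 largest changes are named. The genes, lists and tests were chosen with earlier results of these data known. Pairing by replicate number was checked by correlating each array's deviations from its temperature mean: same-numbered arrays gave 0.53, 0.42 and 0.43, all over 0.1, and the study describes independent experiments. The numbers were therefore taken as a sign of pairing, and the calls above, made without a block, were repeated with the number as one. However, 36°C replicate 3 correlated more, at 0.47, with 25°C replicate 2. Alternatives were quantile normalization, centring on the array median, scaling to hybridization controls, 32 added to each signal, dim features or lower-specificity probe sets left out, eBayes with trend and robust, the replicate block and each array left out. The block combined with centring was added after seeing the data.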

Additional observations from a re-analysis of the deposited data

How the results depend on the processing

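The count of 41 lower replication genes was the same with scaling to hybridization controls, 32 added, dim features left out and lower-specificity probe sets left out, and it was 38 to 41 with single arrays left out, with 0 higher throughout these. It was 45 with the replicate block, beside 59% of all features lower and 16% higher in that fit. The block also gave 2 lower nucleotide supply genes, 3 higher other replication genes, 5 lower (*cdc10* and *res1* added) and 1 higher (*res2*) among MBF and its regulators, and 5 lower MBF targets among the 50. It moved no other call among the 50 genes than *cdt1*, *mcm4*, *sld3* and *cdt2*.

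Scaling mattered most. Over all features, 990 were lower and 883 higher after quantile normalization and 1007 and 1155 after centring, against 1514 and 354 on the deposited signals, and the block with centring gave 1261 higher. With single arrays left out, 1307 to 1551 were lower and 275 to 455 higher. Quantile normalization gave 9 higher replication genes, centring 6 and the block with centring 7. By role, quantile normalization gave 3 lower and 2 higher licensing genes, 2 higher helicase genes, 8 lower and 3 higher polymerase genes, 1 higher fork protection gene and 1 higher nucleotide supply gene. Centring gave 2 higher licensing, 3 higher polymerase and 1 higher nucleotide supply genes, and the block with centring 2, 3 and 2. Among the other replication genes 5 were higher after quantile normalization, 5 after centring and 6 with the block and centring, and 1 to 3 with single arrays left out (3 without 36°C replicate 1). Among MBF and its regulators 3 were higher after quantile normalization, after centring and with the block and centring, 1 with hybridization controls, 1 with trend and robust, and 0 to 1 with single arrays left out (1 without 36°C replicate 1). Quantile normalization left 1 lower MBF target outside the 50 genes, and among those inside 2 were higher, against 1 after centring and 2 with the block and centring.

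The log2 fold change turned positive after centring, with or without the block, for *orc2* (0.61), *cdt1* (0.44), *mcm4* (0.28), *sld3* (0.27), *dfp1* (0.26), *cdc1* (0.72), *pcn1* (0.73), *rfc2* (0.19), *cdc24* (0.062), *dna2* (0.59), *ssb3* (0.19), *suc22* (0.76) and *cdt2* (0.33). After quantile normalization it was positive for *orc2* (0.34), *cdt1* (0.48), *mcm4* (0.31), *psf1* (0.13), *sld3* (0.92), *hsk1* (0.40), *dfp1* (0.44), *spp1* (0.033), *cdc1* (0.49), *cdc27* (0.44), *pcn1* (0.12), *cdc24* (0.73), *dna2* (0.90), *ssb3* (0.95), *suc22* (0.061) and *cdt2* (0.73). With single arrays left out, *cdc1* ranged between -0.21 and 0.17 and was at 0.015 without 25°C replicate 2, 0.069 without 25°C replicate 3 and 0.17 without 36°C replicate 1, and *suc22* ranged between -0.029 and 0.026 and was at 0.008 without 25°C replicate 3 and 0.026 without 36°C replicate 1. Both rescalings give the arrays a common median by construction. The median log2 change over all features was then 0.098 after centring and -0.022 after quantile normalization, against -0.66 on the deposited signals. Which scaling comes closest to RNA per cell was not tested. None of the 10 tested within-array ratios changed direction under its alternatives, which were not run for *mcm3* over *mcm4*. Quantile normalization changed the sizes of the differences, both ways. *hsk1* and *dfp1* had log2 values of 0.40 and 0.44 after it, against -1.03 and -0.50, so their ratio hardly differed between temperatures. *swi1* and *swi3* lay further apart, at -2.86 and -1.69 against -3.84 and -3.08.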

Other observations

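The arrays also carry probe sets for *S. cerevisiae*, including 28 for budding yeast genes of the same replication families. Their signals had a median of 3.8 and a highest value of 23.3, and 23 of the 28 lay above background on no array and 0 on every array. The lowest signal of any of the 50 *S. pombe* genes was 40.5, for *cdc6* on 36°C replicate 1.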
